A study of Mus musculus with 6 samples.

Results

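The immediate early genes described here are 10 named genes, Atf3, Fos, Fosb, Jun, Junb, Egr1, Nr4a1, Nr4a3, Ier2 and Myc, chosen by symbol and found among the 33696 genes of the count matrices. Single-nucleus RNA was sequenced from the left ventricle of male mice in 3 groups with 2 libraries each. WT-CD mice were wild type on a control diet, R403Q-CD mice carried 1 mutant allele of the cardiac myosin heavy chain (Myh6+/R404Q, called R403Q, a model of hypertrophic cardiomyopathy) and ate the control diet, and R403Q-EMPA mice had that allele and the control diet with added empagliflozin (EMPA, an inhibitor of the kidney glucose transporter SGLT2) at 0.15 mg per g of diet, about 15 mg per kg body weight. Diets were begun at 9 to 10 weeks of age and nuclei came from hearts at 12 weeks. The sources used here do not say how many animals went into a library, so every p-value measures the spread between libraries only. The question is whether Atf3 moved in cardiomyocytes together with the rest of the list, and whether it moved in the other cells of the same libraries.

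Immediate early genes are transcribed within minutes of a stimulus without new protein synthesis, through transcription factors that are already present, such as CREB and serum response factor. Their products include the AP-1 subunits of the Fos and Jun families, the zinc finger factor Egr1, the orphan nuclear receptors Nr4a1 and Nr4a3, the nuclear protein Ier2 and the growth regulator Myc. Atf3, a basic leucine zipper factor of the ATF/CREB family that can pair with Jun proteins, is also a target of the integrated stress response, and in the heart it is known as a gene that pressure overload and ischaemia induce. Because tissue handling can switch on the whole class, the members were read side by side in each cell class.

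The promoters of the Nr4a3, Nr4a1 and Atf3 genes are shown because these genes had the 3 lowest unadjusted p-values of the list in cardiomyocytes of R403Q-EMPA vs R403Q-CD hearts. The letters to which CREB and ATF proteins bind also occur less often in the Atf3 window than in those of Nr4a3 and Nr4a1. RefSeq promoter sequences (250 bases before the transcription start and 50 after it) matched 7 of the 10 members, all but Egr1, Ier2 and Myc. They are on build GRCm38.p6, at chr1:191183284-191183583 on the minus strand for Atf3, chr4:48045055-48045354 on the plus strand for Nr4a3 and chr15:101266596-101266895 on the plus strand for Nr4a1. The sequences read 5′ to 3′ along the gene, and capitals mark TGACG or its reverse complement CGTCA, the core of the cAMP response element.
Atf3: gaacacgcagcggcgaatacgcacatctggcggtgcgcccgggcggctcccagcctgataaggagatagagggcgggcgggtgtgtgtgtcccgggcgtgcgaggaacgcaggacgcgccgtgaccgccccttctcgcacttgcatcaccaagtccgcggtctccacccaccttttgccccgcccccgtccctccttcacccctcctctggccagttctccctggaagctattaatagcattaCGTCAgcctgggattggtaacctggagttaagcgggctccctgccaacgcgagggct
Nr4a3: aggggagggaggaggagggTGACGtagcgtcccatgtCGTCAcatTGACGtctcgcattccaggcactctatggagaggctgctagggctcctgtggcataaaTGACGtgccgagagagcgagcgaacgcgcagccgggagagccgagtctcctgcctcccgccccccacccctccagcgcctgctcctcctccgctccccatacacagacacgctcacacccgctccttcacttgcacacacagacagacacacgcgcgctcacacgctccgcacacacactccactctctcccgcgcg
Nr4a1: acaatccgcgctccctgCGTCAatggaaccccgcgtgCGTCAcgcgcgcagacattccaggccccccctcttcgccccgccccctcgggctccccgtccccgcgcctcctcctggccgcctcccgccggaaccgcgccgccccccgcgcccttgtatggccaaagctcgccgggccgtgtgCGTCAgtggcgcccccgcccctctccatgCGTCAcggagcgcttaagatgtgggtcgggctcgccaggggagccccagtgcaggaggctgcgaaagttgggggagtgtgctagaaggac

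Searched on both strands, TGACG was found 1 time in the Atf3 window, 7 bases before the start, 4 times in the Nr4a3 window and 4 times in the Nr4a1 window. Of the other members, Fos had 2 matches, Fosb 1, Junb 1 and Jun 0. The same 5 letters were present in 20.8% of 32851 RefSeq promoter windows of this length. The full element TGACGTCA, which contains the core and stands in 1.79% of windows, the AP-1 site TGANTCA (7.81%) and the CArG box bound by serum response factor (1.63%) had 0 matches in the 7 members. These are letter matches in a short window, and binding was not measured.

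The 6 libraries held 31787308 to 45397128 unique molecules (UMIs). After filters on depth, genes, mitochondrial share and doublets, 46005 nuclei of 69249 barcodes were kept, and 544 barcodes were shared between pairs of libraries before filtering. The cardiomyocyte-like class held 6938 nuclei (713 to 1602 per library, 9.36% to 25.0% of a library's nuclei), with a median of 6888.5 to 12099.5 UMIs per nucleus. All 12 of its fixed markers were at least 2-fold higher in it than in the other nuclei. Levels are given as CPM, the UMIs of a gene per 1000000 UMIs of that class in that library. In summed nuclei, fewer nuclei with a gene on and less RNA of it per nucleus cannot be told apart from a level alone.

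Atf3 (ENSMUSG00000026628) was higher in cardiomyocyte-like nuclei of R403Q hearts than of WT-CD hearts, about 5.91-fold by group means without EMPA and 3.00-fold with it. In WT-CD hearts, Atf3 stood at 4.94 and 4.50 CPM (42 and 39 UMIs). It stood at 24.8 and 31.0 CPM in R403Q-CD hearts (250 and 362 UMIs), and at 16.9 and 11.4 CPM in R403Q-EMPA hearts (241 and 132 UMIs). All 4 R403Q libraries lay above both WT-CD libraries, and both R403Q-EMPA libraries lay between the other groups, with no overlap.

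The rise of Atf3 in R403Q-CD vs WT-CD cardiomyocytes was 2.55 ± 0.24 on the log2 scale (± SE, edgeR quasi-likelihood test, adjusted p = 0.0135), and its p-value was the smallest of the 14360 genes tested. The members and tests were chosen with earlier results of these data known, so this rank is a description and no independent support. Atf3 was 1 of 9 members tested and the single member to pass, where 0.0905% of all genes tested passed (13 genes). In R403Q-EMPA vs WT-CD hearts, the rise of Atf3 was 1.52 ± 0.24 (adjusted p = 0.0108), again for 1 of 9 members, with 4.01% of all genes passing (576 genes). The direct comparison of R403Q-EMPA with R403Q-CD gave -1.03 ± 0.21 for Atf3 (adjusted p = 0.0836), and 0 of 9 members passed there by edgeR against 0.251% of all genes (36 genes); 3 members had an unadjusted p under 0.05, as did 12.7% of all genes, and DESeq2 called 3, among 240 of 9070 genes. The R403Q-CD vs WT-CD call for Atf3 was lost without R403Q-CD replicate 2 (adjusted p = 0.135), a fit in which 0 genes passed, and that of R403Q-EMPA vs WT-CD without R403Q-EMPA replicate 1 (adjusted p = 0.0662). The latter was also lost in the largest of the 3 cardiomyocyte-like clusters alone (0.62, adjusted p = 0.416), which held 31.7% to 91.6% of the class by library.

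**Figure D1:**
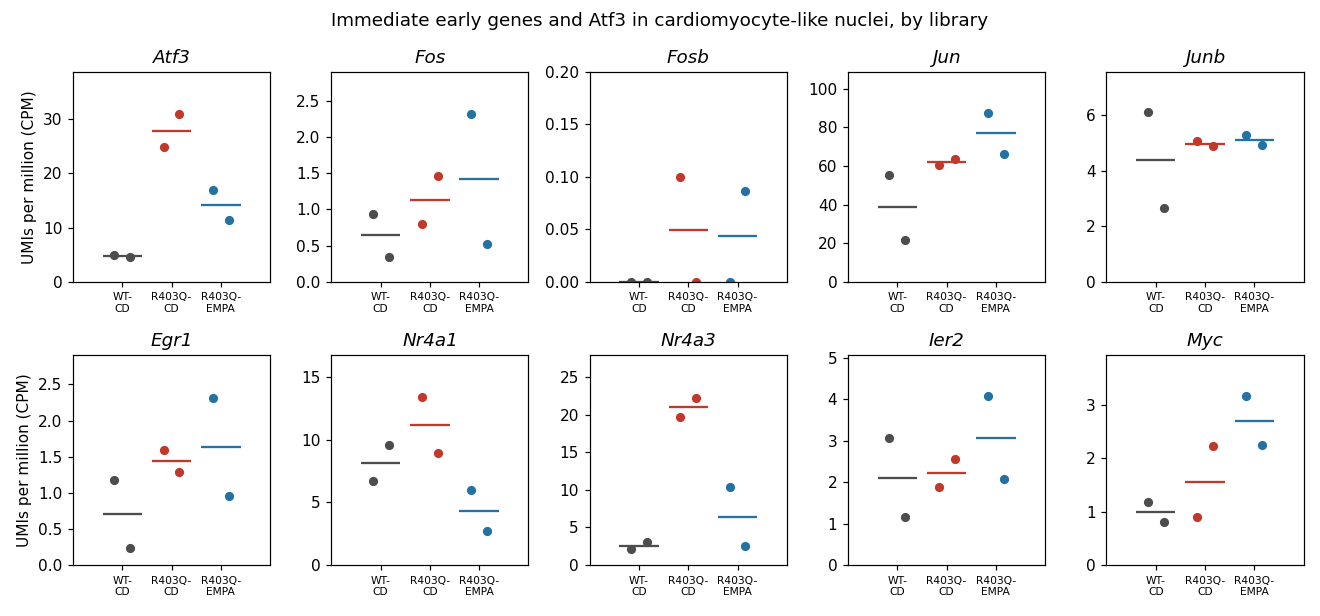
Levels of the members in cardiomyocyte-like nuclei, in CPM, with 1 point per library and a bar at the mean of the 2 libraries of each group. Atf3 and Nr4a3 were at 4.94 CPM or below in WT-CD libraries and at 19.7 CPM or above in R403Q-CD libraries, while Junb and Ier2 overlapped between groups.

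Atf3 UMIs were found in few nuclei. These are raw counts, and the part of background RNA in them was not tested. A UMI of Atf3 was seen in 2.58% and 3.37% of WT-CD cardiomyocyte-like nuclei, with 95% Wilson intervals of 1.80% to 3.68% and 2.27% to 4.96%. The share was 12.6% (10.6% to 14.8%) and 11.0% (9.21% to 13.1%) in R403Q-CD libraries, and 8.72% (7.42% to 10.2%) and 6.30% (5.22% to 7.60%) in R403Q-EMPA libraries. At full depth, both R403Q groups lay above WT-CD without overlap of the intervals, which cover counting error only. The share in fibroblast-like nuclei, read at a lower median depth of 2527.5 to 4561 UMIs, was 0.42% to 1.15%.

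With every nucleus thinned to 500 UMIs, the shares of cardiomyocyte-like nuclei with Atf3 fell to 0.267% and 0% for the WT-CD libraries, 1.44% and 1.12% for the R403Q-CD libraries and 0.646% and 0.437% for the R403Q-EMPA libraries, and the 0% has an upper Wilson bound of 0.536%. The order of the group means stayed as in CPM at this depth, with few nuclei behind each value, but the intervals overlapped. WT-CD replicate 1 had 0.0908% to 0.782%, against 0.351% to 1.19% and 0.212% to 0.899% in the R403Q-EMPA libraries. R403Q-CD replicate 2 (0.628% to 2.00%) also overlapped with it, and R403Q-CD replicate 1 (0.861% to 2.41%) did not. A single nucleus held at most 5 and 6 Atf3 UMIs in the WT-CD libraries, at most 11 and 40 in the R403Q-CD libraries, and at most 38 and 5 in the R403Q-EMPA libraries. Without the nucleus holding most of them, the Atf3 level was 4.36 and 3.81 CPM in WT-CD, 23.7 and 27.6 CPM in R403Q-CD, and 14.3 and 11.0 CPM in R403Q-EMPA libraries, so the groups stayed apart. At least 2 Atf3 UMIs were held by 6 and 5 nuclei in WT-CD, by 50 and 54 in R403Q-CD, and by 32 and 22 in R403Q-EMPA libraries.

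Nr4a3 (ENSMUSG00000028341), an orphan receptor without a known natural ligand, was the member whose cardiomyocyte levels came closest to this order, but its difference did not pass the test. Its level was 2.12 and 3.00 CPM in WT-CD, 19.7 and 22.3 CPM in R403Q-CD, and 10.4 and 2.51 CPM in R403Q-EMPA hearts. Both R403Q-CD libraries lay above all others, and R403Q-EMPA replicate 2 lay within the WT-CD range. The log2 fold change was 3.01 ± 0.53 for R403Q-CD vs WT-CD (adjusted p = 0.0872), -1.74 ± 0.45 for R403Q-EMPA vs R403Q-CD (adjusted p = 0.155) and 1.27 ± 0.55 for R403Q-EMPA vs WT-CD (adjusted p = 0.247). DESeq2 called the first of these (adjusted p = 6.67e-07), and so did edgeR without the filter on low counts. The sign of the last turned in the largest cardiomyocyte-like cluster alone (-0.80) and without R403Q-EMPA replicate 1 (-0.064), and it passed without R403Q-EMPA replicate 2 (1.91, adjusted p = 0.0152).

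Nr4a1, the other receptor of this family in the list, had its lowest cardiomyocyte levels in R403Q-EMPA hearts. It stood at 6.71 and 9.57 CPM in WT-CD, 13.4 and 8.90 CPM in R403Q-CD, and 5.97 and 2.68 CPM in R403Q-EMPA libraries. Both R403Q-EMPA libraries were below all others, and the other groups overlapped. Its log2 fold change was 0.43 ± 0.37 in R403Q-CD vs WT-CD (adjusted p = 0.924), -1.41 ± 0.38 in R403Q-EMPA vs R403Q-CD (adjusted p = 0.173) and -0.98 ± 0.39 in R403Q-EMPA vs WT-CD (adjusted p = 0.208).

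Among the AP-1 subunits, Jun, the main partner of Fos proteins, was the best counted, with 4020 UMIs in cardiomyocyte-like nuclei. It stood at 55.2 and 21.9 CPM in WT-CD, 60.4 and 63.4 CPM in R403Q-CD, and 87.4 and 66.4 CPM in R403Q-EMPA hearts. Its groups did not overlap, but the 2 WT-CD libraries lay farther apart than WT-CD replicate 1 and either R403Q-CD library. The log2 fold change of Jun was 0.71 ± 0.29 in R403Q-CD vs WT-CD (adjusted p = 0.678) and 0.96 ± 0.29 in R403Q-EMPA vs WT-CD (adjusted p = 0.104). Junb, a Jun family member that can hold back Jun activity, ran from 2.65 to 6.12 CPM with both extremes in WT-CD, and its log2 fold changes were 0.19 ± 0.34, -0.02 ± 0.33 and 0.17 ± 0.34 in the 3 comparisons, taken in the order R403Q-CD vs WT-CD, then R403Q-EMPA vs R403Q-CD, then R403Q-EMPA vs WT-CD. Fos, the prototype of the class, was counted 75 times in all, at 0.346 to 2.32 CPM, and Fosb 2 times, too few to be tested.

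The remaining members had 2 to 58 UMIs per library in cardiomyocyte-like nuclei. Egr1, which binds GC-rich promoters, ran from 0.231 to 2.32 CPM, Ier2 from 1.15 to 4.07 CPM, and Myc from 0.808 to 3.16 CPM. The groups overlapped for Ier2 in all 3 comparisons, while Egr1 was at 1.18 and 0.231 CPM in WT-CD against 1.59 and 1.28 CPM in R403Q-CD libraries, on 2 to 16 UMIs each. For Myc both R403Q-EMPA libraries were above the other 4, at 3.16 and 2.25 CPM against 0.808 to 2.23 CPM. Myc had a log2 fold change of 1.38 ± 0.51 in R403Q-EMPA vs WT-CD (adjusted p = 0.178). Over the 9 members tested, the median log2 fold change was 0.71, 0.15 and 1.10 in the same order, beside -0.01, 0.01 and 0.00 over all genes tested. The comparisons share libraries, so they are not independent of each other.

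**Figure D2:**
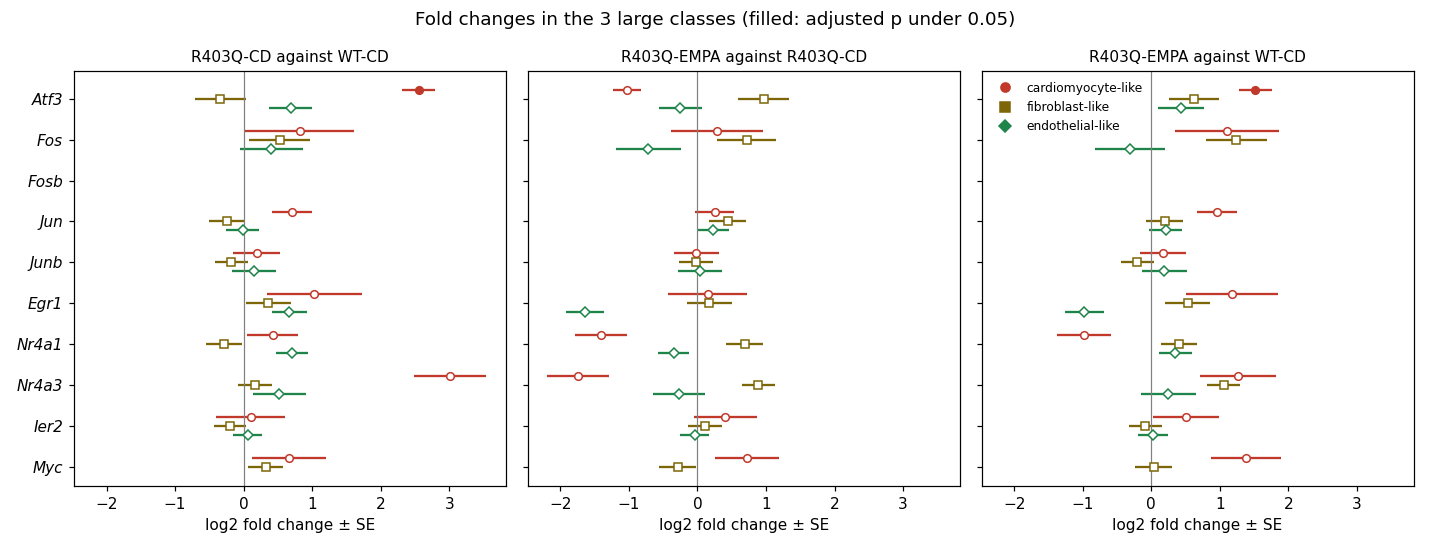
Log2 fold changes of the members with their standard errors in cardiomyocyte-like, fibroblast-like and endothelial-like nuclei for the 3 comparisons, where filled markers have an adjusted p under 0.05. Only Atf3 in cardiomyocyte-like nuclei is filled, at 2.55 in R403Q-CD vs WT-CD and 1.52 in R403Q-EMPA vs WT-CD.

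Over all other nuclei together, Atf3 stood at 6.69 and 5.58 CPM in WT-CD, 6.66 and 7.19 CPM in R403Q-CD, and 8.38 and 8.04 CPM in R403Q-EMPA hearts, where WT-CD and R403Q-CD overlapped and R403Q-EMPA was highest. Cardiomyocyte-like nuclei held 21.2% of the Atf3 UMIs of each WT-CD library (95% Wilson intervals 16.1% to 27.4% and 15.9% to 27.7%). They held 62.8% (58.0% to 67.4%) and 67.4% (63.3% to 71.2%) in R403Q-CD and 55.1% (50.5% to 59.7%) and 57.4% (50.9% to 63.6%) in R403Q-EMPA libraries. All R403Q libraries lay above both WT-CD libraries in this share, which also moves with the share of cardiomyocyte-like nuclei in the library. Its intervals take each UMI as an independent draw. A single nucleus held 40 of 362 UMIs in R403Q-CD replicate 2 and 38 of 241 in R403Q-EMPA replicate 1, so the intervals are too narrow.

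The difference between the 2 fold changes was tested in 1 model over cardiomyocyte-like and other nuclei of the same libraries. The R403Q-CD vs WT-CD fold change of Atf3 was larger in cardiomyocyte-like nuclei by 2.37 ± 0.25 on the log2 scale (adjusted p = 0.0164), for 1 of 10 members, with 0.0899% of all genes passing (16 of 17798). For R403Q-EMPA vs R403Q-CD the difference was -1.26 ± 0.22 (adjusted p = 0.0549) and for R403Q-EMPA vs WT-CD 1.12 ± 0.26 (adjusted p = 0.0506), with 0 members and 0.264% and 2.6% of all genes passing. Nr4a3 had differences of 2.94 ± 0.51 (adjusted p = 0.0972) and -2.13 ± 0.44 (adjusted p = 0.0908) in the first and second comparison. Jun had 0.82 ± 0.19 (adjusted p = 0.235) in R403Q-CD vs WT-CD. The Atf3 call was lost in a repeat without the mitochondrial limit (2.09, adjusted p = 0.108), without WT-CD replicate 1 (adjusted p = 0.0763) and without R403Q-CD replicate 2 (adjusted p = 0.0714). That repeat also called doublets and clustered nuclei anew. It removed 0 doublets from R403Q-EMPA replicate 1, against 303 with the limit, and redrew the classes, so these changes and the limit itself cannot be told apart in it.

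Atf3 had enough counts for the test in 6 classes, and it passed in the cardiomyocyte-like class and in no other of them. Myeloid-like nuclei had 23.7 and 22.0 CPM in WT-CD, 25.0 and 33.6 CPM in R403Q-CD, and 28.6 and 21.2 CPM in R403Q-EMPA libraries. Endocardial-like nuclei ran from 9.36 to 19.5 CPM with the highest values in R403Q-EMPA, at 18.1 and 19.5 CPM, and the lowest in R403Q-CD, at 9.36 and 11.3 CPM. Endothelial-like nuclei had 4.84 and 5.39 CPM in WT-CD, 7.34 and 8.89 CPM in R403Q-CD, and 5.77 and 9.02 CPM in R403Q-EMPA libraries. All 4 R403Q libraries were thus above both WT-CD libraries there, as in cardiomyocyte-like nuclei, and the group means of endothelial-like and myeloid-like nuclei had the cardiomyocyte order, with R403Q-EMPA between the other groups. The fibroblast-like class ran from 1.40 to 3.40 CPM. By the mean over the 6 libraries, smooth muscle-like, myeloid-like and epicardial-like nuclei came first, then cardiomyocyte-like, endocardial-like, lymphatic endothelial-like, endothelial-like, pericyte-like, fibroblast-like and lymphoid-like nuclei. All neighbours in this order overlapped in their library values, and endothelial-like and fibroblast-like nuclei, with 1 class between them, did not. This order depends on the groups pooled in it. In WT-CD libraries alone, cardiomyocyte-like nuclei had a mean of 4.72 CPM, below lymphatic endothelial-like (14.5), endocardial-like (14.3), endothelial-like (5.11) and pericyte-like nuclei (4.75). In R403Q-CD libraries they had 27.9 CPM, above these 4 classes (4.95 to 10.3 CPM). The smooth muscle-like place rests on 24 UMIs, with 0 in 2 libraries and 10 in 1 nucleus of R403Q-CD replicate 1 (95.3 CPM). The epicardial-like place rests on 27 UMIs and the lymphoid-like one on 2 UMIs.

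In myeloid-like nuclei, the fold change of Atf3 was 0.32 ± 0.28 for R403Q-CD vs WT-CD (adjusted p = 0.995). The share of all genes that passed was 0.00925%, 0.0925% and 0.49% in myeloid-like nuclei over the 3 comparisons, and 0%, 0.605% and 1.67% in pericyte-like nuclei, where Atf3 ran from 2.58 to 7.63 CPM. Fibroblast-like nuclei gave -0.34 ± 0.37 and endothelial-like nuclei 0.69 ± 0.32 in that comparison (adjusted p = 1 in both). Of 9 members tested in fibroblast-like nuclei and 8 in endothelial-like nuclei, 0 passed in any of the 3 comparisons by edgeR. Beside these, 0%, 0.365% and 1.25% of all genes passed in fibroblast-like nuclei and 0%, 0.249% and 0.819% in endothelial-like nuclei. At an unadjusted p under 0.05, there were 0, 3 and 2 members in fibroblast-like nuclei and 2, 1 and 1 in endothelial-like nuclei, where 3.01%, 13.4% and 14.4%, and 3.52%, 9.69% and 12.8%, of all genes did so. Pericyte-like nuclei had 2, 1 and 3 of 7 members tested (3.67%, 8.88% and 12.2% of all genes). Myeloid-like nuclei had 0, 1 and 1 of 6 (4.49%, 7.22% and 10.7%). The most outside cardiomyocyte-like nuclei in 1 comparison were 5 of 8 in endocardial-like nuclei, described below. DESeq2 called Nr4a3 in R403Q-EMPA vs WT-CD fibroblast-like nuclei, among 406 of 13591 genes, and Egr1 in R403Q-EMPA vs R403Q-CD endothelial-like nuclei, among 123 of 13230.

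**Figure D3:**
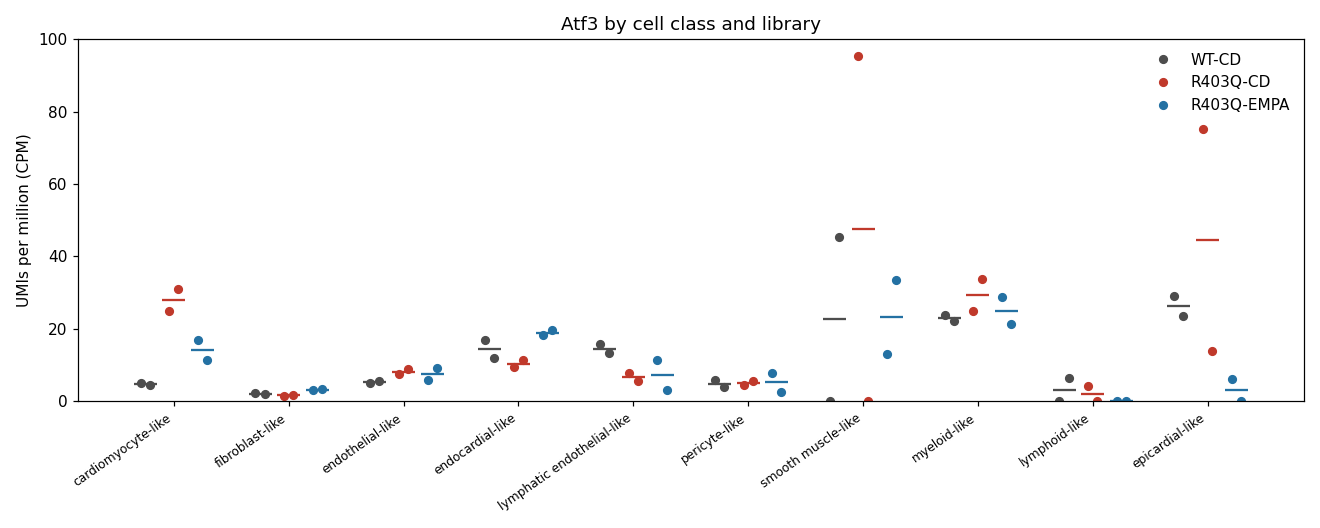
Atf3 level in CPM by cell class, with 1 point per library and a bar at the mean of the 2 libraries of each group. In cardiomyocyte-like nuclei the groups stand apart, from 4.50 CPM in WT-CD to 31.0 CPM in R403Q-CD. Fibroblast-like nuclei run from 1.40 to 3.40 CPM.

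Against single classes, 3 members had fold changes in cardiomyocyte-like nuclei that passed a test of the difference from fibroblast-like nuclei. For Atf3 the difference was 2.91 ± 0.38 in R403Q-CD vs WT-CD (adjusted p = 0.0169) and -2.00 ± 0.37 in R403Q-EMPA vs R403Q-CD (adjusted p = 0.0419). The latter combines -1.03 in cardiomyocyte-like nuclei with 0.96 ± 0.38 in fibroblast-like nuclei, and neither fold change passed (edgeR, adjusted p = 0.0836 and 0.325). Jun differed by 1.00 ± 0.15 (adjusted p = 0.0311) in R403Q-CD vs WT-CD and by 0.79 ± 0.15 (adjusted p = 0.0213) in R403Q-EMPA vs WT-CD, and Nr4a3 by -2.74 ± 0.43 (adjusted p = 0.0226) in R403Q-EMPA vs R403Q-CD. These 5 calls were lost in the repeat without the mitochondrial limit, with adjusted p from 0.0714 to 0.197, and each was lost without at least 1 library of the groups compared or of R403Q-CD. The share of all genes that passed against fibroblast-like nuclei was 0.122%, 0.683% and 2.27% in the 3 comparisons. Nr4a3 stood at 8.08 to 12.4 CPM in fibroblast-like nuclei of both groups on control diet and at 20.3 and 18.6 CPM with EMPA. It was thus higher with EMPA than in R403Q-CD libraries there, and lower with EMPA in cardiomyocyte-like nuclei. Against endothelial-like nuclei, with 0.163%, 0.796% and 2.85% of all genes passing, Nr4a3 differed by 2.47 ± 0.44 in R403Q-CD vs WT-CD (adjusted p = 0.0397). For Atf3 the difference from endothelial-like nuclei was 1.87 ± 0.38 in that comparison and did not pass (adjusted p = 0.0730).

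In other classes, Egr1 ran from 28.1 to 72.3 CPM in fibroblast-like nuclei, where its groups overlapped. In endocardial-like nuclei, the lining of the ventricle, it stood at 50.4 and 40.5 CPM in WT-CD, 52.3 and 56.4 CPM in R403Q-CD, and 23.6 and 18.9 CPM in R403Q-EMPA hearts. Both R403Q-EMPA libraries were below the other 4. Endocardial Egr1 fell by 1.36 ± 0.21 on the log2 scale in R403Q-EMPA vs R403Q-CD (adjusted p = 0.0135) and by 1.10 ± 0.21 in R403Q-EMPA vs WT-CD (adjusted p = 0.0249), the single called member of 8 tested in each, with 0.841% and 2.27% of all genes passing (0% in R403Q-CD vs WT-CD). At an unadjusted p under 0.05 there were 3, 5 and 2 of these members in the 3 comparisons, beside 3.69%, 11.2% and 14.7% of all genes. In R403Q-EMPA vs R403Q-CD, Fos (-1.62 ± 0.47), Egr1 and Ier2 (-0.86 ± 0.29) were lower, and Atf3 (0.81 ± 0.30) and Jun (0.47 ± 0.18) higher. In R403Q-CD vs WT-CD, Fos (1.55 ± 0.47) and Fosb (1.92 ± 0.77) were higher and Jun (-0.40 ± 0.18) lower.

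The fall of endocardial Egr1 did not hold under every fit. The first call was lost without R403Q-CD replicate 1 (adjusted p = 0.0779), R403Q-CD replicate 2 (0.166) or R403Q-EMPA replicate 1 (0.0555), and the second with DESeq2 (0.0595), with only the 2 groups compared (0.0631), and without R403Q-EMPA replicate 1 (0.0793) or replicate 2 (0.0810). In endothelial-like nuclei, Egr1 was at 20.6 and 12.9 CPM in WT-CD, 25.8 and 24.5 CPM in R403Q-CD, and 9.94 and 5.21 CPM in R403Q-EMPA libraries. The order was as in endocardial-like nuclei, and the fold change of -1.64 ± 0.28 in R403Q-EMPA vs R403Q-CD did not pass (adjusted p = 0.0639).

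No Nr4a3 UMI was found in epicardial-like nuclei, the outer lining of the heart, of the treated hearts. It stood at 87.4 and 103 CPM in WT-CD and 150 and 68.6 CPM in R403Q-CD libraries, and at 0 in both R403Q-EMPA libraries. Over the groups these were 49 UMIs in 112 nuclei, 33 UMIs in 67 nuclei and 0 UMIs in 66 nuclei. The UMIs came from 14 of 71 and 13 of 41 nuclei in WT-CD libraries and from 5 of 27 and 6 of 40 in R403Q-CD libraries. A floor of 3 counts over the R403Q-EMPA group would be 11.5 CPM. The level was 8.16-fold above this floor in WT-CD and 8.48-fold above it in R403Q-CD hearts. These ratios leave out counting error and are not lower bounds. Nr4a3 was the single member to pass the filter on low counts in this class, and it passed through the groups where it is high, so its levels are given as a description without a test. Over all genes of this class, 0.0643%, 0.171% and 0.257% passed in the 3 comparisons. In the repeat without the mitochondrial limit, R403Q-EMPA libraries held 6 and 1 UMIs (27.5 and 6.13 CPM), the 6 in replicate 1, from which that repeat removed no doublets. WT-CD libraries were at 70.2 and 98.1 CPM and R403Q-CD libraries at 139 and 59.7 CPM in that repeat.

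**Figure D4:**
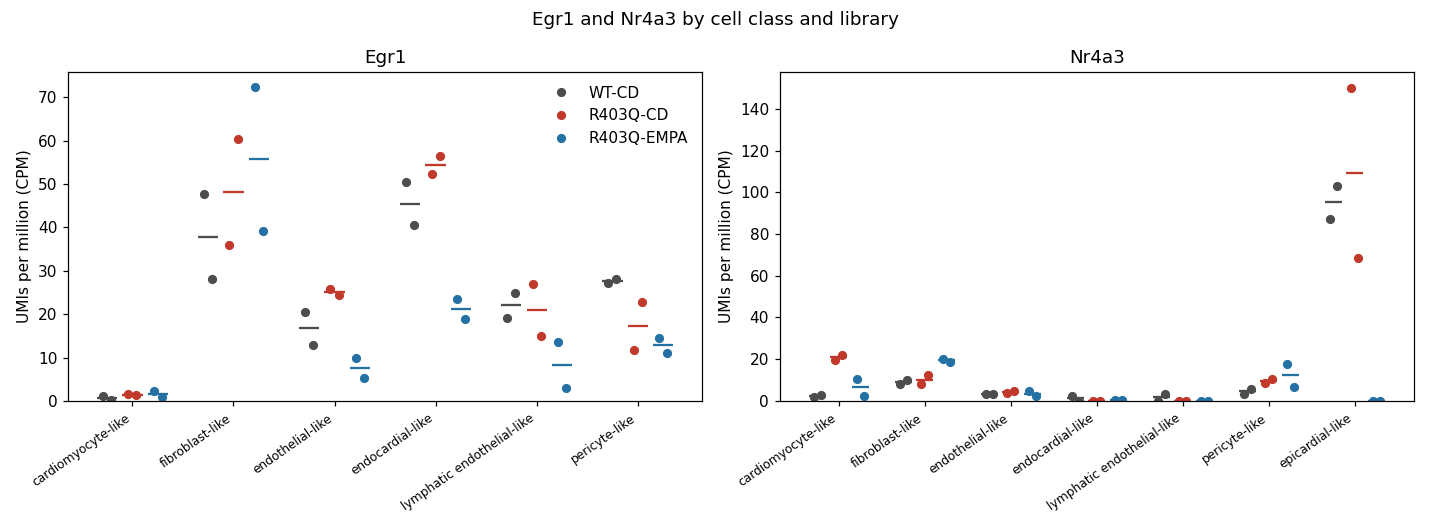
Levels of Egr1 and Nr4a3 in CPM by cell class, with 1 point per library and a bar at the mean of the 2 libraries of each group. Endocardial-like Egr1 was at 23.6 and 18.9 CPM in R403Q-EMPA against 40.5 CPM or more elsewhere, and epicardial-like Nr4a3 was at 0 in R403Q-EMPA.

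Within the cardiomyocyte-like class, Atf3 was not even over its 3 clusters, which were built without the 10 members. The largest cluster (4453 nuclei) held 91.6% and 88.2% of the class in the WT-CD libraries, 79.1% and 61.7% in the R403Q-CD libraries, and 31.7% and 58.1% in the R403Q-EMPA libraries. A cluster with Ryr3 and Scube2 among its leading genes (1494 nuclei) held 3.74% and 3.23%, 8.55% and 16.4%, and 45.0% and 30.5% in the same order. The third, a shallow cluster (991 nuclei) with a higher mitochondrial share, held 4.63% to 23.3%. The part of this makeup in the class levels was not tested, and the values within clusters are given beside it.

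In the largest cluster, Atf3 stood at 4.39 and 3.68 CPM in WT-CD, 22.7 and 14.9 CPM in R403Q-CD, and 4.85 and 7.72 CPM in R403Q-EMPA hearts. The rise in R403Q-CD vs WT-CD was 2.22 ± 0.31 there (adjusted p = 0.0153). In R403Q-EMPA vs WT-CD the fold change of Atf3 was 0.62 in that cluster and did not pass (adjusted p = 0.416), and in R403Q-EMPA vs R403Q-CD it was -1.60 (adjusted p = 0.0548). The Ryr3 cluster had 10.4 and 25.7 CPM of Atf3 in WT-CD (4 and 9 UMIs), 33.4 and 91.2 CPM in R403Q-CD, and 24.9 and 19.3 CPM in R403Q-EMPA libraries. Both R403Q-EMPA libraries there lay within the WT-CD range, and both R403Q-CD libraries above it.

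Nr4a3 in the largest cluster was at 2.13 and 3.07 CPM in WT-CD, 19.0 and 19.9 CPM in R403Q-CD, and 2.43 and 0.874 CPM in R403Q-EMPA hearts. There it rose by 2.88 ± 0.34 in R403Q-CD vs WT-CD (adjusted p = 0.0107) and fell by 3.68 ± 0.38 in R403Q-EMPA vs R403Q-CD (adjusted p = 0.00207). This restriction to 1 cluster was chosen after the class results were seen. In the Ryr3 cluster, Nr4a3 stood at 25.6 and 34.9 CPM in R403Q-CD and 14.6 and 5.25 CPM in R403Q-EMPA libraries, with 1 UMI in each WT-CD library.

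**Figure D5:**
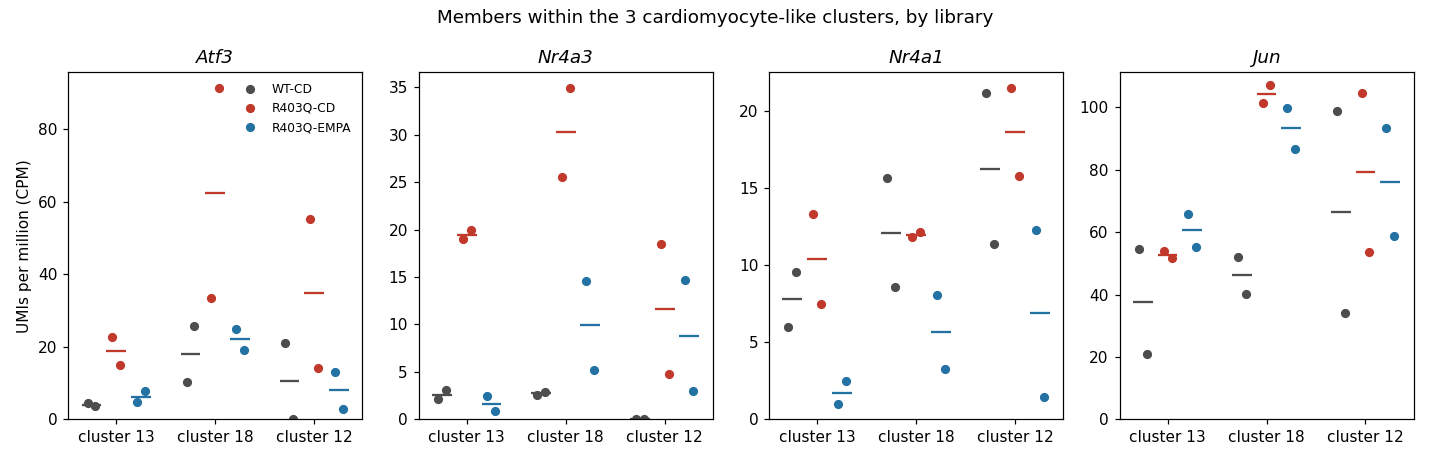
Levels of Atf3 and Nr4a3 in CPM in each of the 3 cardiomyocyte-like clusters, with 1 point per library and a bar at the mean of the 2 libraries of each group. In the largest cluster the R403Q-EMPA libraries are at 4.85 and 7.72 CPM of Atf3, closer to WT-CD than in the class as a whole.

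Atf3 and Nr4a3 were also compared nucleus by nucleus. In R403Q-CD replicate 1, Nr4a3 was found in 21 of 122 cardiomyocyte-like nuclei with an Atf3 UMI (17.2%, 95% Wilson interval 11.5% to 24.9%) and in 77 of the other 849 (9.07%, 7.32% to 11.2%). In R403Q-CD replicate 2 it was 30 of 108 (27.8%, 20.2% to 36.9%) against 69 of 872 (7.91%, 6.30% to 9.89%). The share was higher beside Atf3 in both, and the nuclei with Atf3 were also deeper, at medians of 11049 against 10224 and 16102.5 against 11704.5 UMIs. In R403Q-EMPA libraries it was 16 of 135 against 64 of 1413 nuclei and 4 of 101 against 20 of 1501. WT-CD replicate 1 had 0 of 29 (Wilson interval 0% to 11.7%) against 13 of 1095 (0.695% to 2.02%), too few nuclei to give a direction, and WT-CD replicate 2 had 3 of 24 (4.34% to 31.0%) against 12 of 689 (0.999% to 3.02%).

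The genes most like Atf3 over the 60 sums of 6 libraries and 10 classes (Pearson r of log2 CPM, 14157 genes) were Pcyt1a (r = 0.64), Ogfod3 (0.63), Trappc6a (0.63), Bach1 (0.61) and Hexdc (0.61). Among the members, r ranged from 0.41 for Nr4a1, rank 273, to -0.41 for Myc. These sums share libraries and differ in depth, so r is a description.

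Other genes that act around the members were read in cardiomyocyte-like nuclei from lists of the pathway. Of 50 other immediate early genes, 39 were tested and 0 passed in any of the 3 comparisons by edgeR, while at an unadjusted p under 0.05 there were 3 higher and 0 lower, 8 and 5, and 11 and 2, beside 6.77%, 12.7% and 19.5% of all genes in either direction. Their lowest p in R403Q-CD vs WT-CD belonged to Sik1, a salt-inducible kinase and CREB target, at 9.30 and 9.23 CPM in WT-CD, 38.2 and 19.3 CPM in R403Q-CD, and 16.2 and 8.75 CPM in R403Q-EMPA hearts. Its fold change of 1.62 ± 0.36 did not pass (adjusted p = 0.207). Next came Btg2, an antiproliferative gene, at 0.98 ± 0.22 (adjusted p = 0.207). The lowest p-values in R403Q-EMPA vs R403Q-CD belonged to Errfi1 (0.76 ± 0.20) and Pim1 (-1.04 ± 0.27), and in R403Q-EMPA vs WT-CD to Fosl2 (0.93 ± 0.23) and Arid5b (-0.69 ± 0.17), all with adjusted p from 0.0569 to 0.161. The list's median log2 fold changes were 0.05, 0.29 and 0.36. Of the ATF/CREB and AP-1 partners, Creb5 was the single gene of 20 tested to pass, at 73.0 and 81.3 CPM in WT-CD and 249 and 232 CPM in R403Q-EMPA libraries (1.56 ± 0.21, adjusted p = 0.00587), where 4.01% of all genes passed. It was first also in the other 2 comparisons without passing, at 0.79 ± 0.20 in R403Q-CD vs WT-CD and 0.77 ± 0.20 in R403Q-EMPA vs R403Q-CD, followed by the small Maf proteins Mafg (0.38 ± 0.14) and Mafk (-0.57 ± 0.17), with adjusted p from 0.158 to 0.610.

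Genes of the integrated stress response, to which Atf3 belongs, passed in R403Q-EMPA vs WT-CD alone, 2 higher and 2 lower of 18 tested, beside 4.01% of all genes. These include the secreted factor Gdf15, at 0.353 and 0.346 CPM in WT-CD (3 UMIs in each library), 0.696 and 1.11 CPM in R403Q-CD, and 4.49 and 2.51 CPM in R403Q-EMPA libraries, which entered the test mainly through the group where it is high and is given as a description. Ddit4, an inhibitor of mTORC1, rose by 1.57 ± 0.28 (adjusted p = 0.0155). The mitochondrial folate enzyme Aldh1l2 fell by 1.35 ± 0.26 (adjusted p = 0.0208) and the cysteine synthesis enzyme Cth fell by 1.34 ± 0.29 (adjusted p = 0.0367). In R403Q-CD vs WT-CD, where Atf3 rose most, 0 genes of this list passed by edgeR, beside 0.0905% of all genes. There, 0 had an unadjusted p under 0.05, beside 6.77% of all genes. The lowest p-values there belonged to Ppp1r15a (0.48 ± 0.22, adjusted p = 0.740) and Gdf15 (adjusted p = 0.792), and in R403Q-EMPA vs R403Q-CD to Ddit4 (1.22 ± 0.27, adjusted p = 0.0991) and Aldh1l2 (-1.09 ± 0.26, adjusted p = 0.124). At an unadjusted p under 0.05, R403Q-EMPA vs R403Q-CD had 2 genes of this list higher and 3 lower, beside 12.7% of all genes. R403Q-EMPA vs WT-CD had 3 higher and 5 lower, beside 19.5% of all genes. Of 32 kinase pathway genes tested, Map2k6, an activator of p38, fell by 1.44 ± 0.20 in R403Q-EMPA vs R403Q-CD (adjusted p = 0.0325) and by 1.05 ± 0.20 in R403Q-EMPA vs WT-CD (adjusted p = 0.0223), and Mapk10 fell by 1.05 ± 0.23 in the latter (adjusted p = 0.0388), beside 0.251% and 4.01% of all genes passing. In R403Q-CD vs WT-CD, 0 passed, beside 0.0905% of all genes, with the lowest p for the kinase genes Rps6ka2 (0.78 ± 0.19, adjusted p = 0.260) and Mapk14 (-0.50 ± 0.19, adjusted p = 0.610). There, 3 of the 32 had an unadjusted p under 0.05, beside 6.77% of all genes.

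Heat-shock genes, which also respond to handling, moved with EMPA in the same libraries. Of 18 tested in cardiomyocyte-like nuclei, 0, 4 and 12 were higher in the same order of comparisons, beside 0.0905%, 0.251% and 4.01% of all genes in either direction. At an unadjusted p under 0.05, 7, 11 and 15 were higher, beside 6.77%, 12.7% and 19.5% of all genes. In fibroblast-like nuclei 0, 6 and 11 were called higher (0%, 0.365% and 1.25% of all genes in either direction), and in endothelial-like nuclei 0, 8 and 11 (0%, 0.249% and 0.819%). Their median log2 fold change in cardiomyocyte-like nuclei was 0.47, 0.72 and 1.17. Hsph1, for instance, was at 6.12 and 4.73 CPM in WT-CD, 11.8 and 12.5 CPM in R403Q-CD, and 71.1 and 49.5 CPM in R403Q-EMPA libraries, highest where Atf3 was between the other groups. The lowest p-values in R403Q-CD vs WT-CD belonged to Hsph1 (1.16 ± 0.22, adjusted p = 0.126) and Hspa8 (0.86 ± 0.17, adjusted p = 0.129). With EMPA, Hsph1 rose by 2.25 ± 0.19 against R403Q-CD (adjusted p = 0.00292) and by 3.41 ± 0.21 against WT-CD (adjusted p = 0.00034), and Hsp90aa1 rose by 1.14 ± 0.18 against R403Q-CD (adjusted p = 0.0477). The near-identical Hspa1a and Hspa1b, whose reads can be split between them, were at 7.44 and 2.51 CPM and at 4.42 and 1.65 CPM in R403Q-EMPA libraries and at 0.856 CPM or less in the others. Both entered the test through the R403Q-EMPA libraries where they are high, so these levels are a description. The counts of higher heat-shock genes above include Hspa1b against R403Q-CD and both genes against WT-CD. Summed marker levels of other cells in cardiomyocyte-like nuclei overlapped between groups for the myeloid list (26.5 to 34.3 CPM in WT-CD, 24.3 to 43.3 in R403Q-CD, 28.1 to 36.4 in R403Q-EMPA, 9 or 10 of its 10 genes detected). The fibroblast list was at 1365 to 1411 CPM in WT-CD, 1092 to 1174 in R403Q-CD and 911 to 1148 in R403Q-EMPA libraries with all 10 genes detected, and the adipocyte list at 200.1 to 203.8, 251.9 to 261.0 and 264.8 to 304.9 CPM with 4 to 8 of 8. The lymphatic endothelial list did not overlap between any of the groups, at 171 to 187 CPM in WT-CD, 147 to 157 in R403Q-CD and 124 to 145 in R403Q-EMPA libraries (8 of 8 genes). The endothelial list was at 72.0 to 76.2, 67.5 to 92.9 and 92.0 to 123 CPM in the same order (10 of 10), and the smooth muscle list at 1355 to 1899, 1190 to 1273 and 1148 to 1388 CPM (6 to 8 of 8). The endocardial, pericyte and Schwann lists were lower in both R403Q-EMPA libraries than in the other 4, at 616 to 619, 276 to 334 and 9.06 to 9.44 CPM against at least 629, 342 and 11.5 CPM. The lymphoid and epicardial lists were at 6.04 CPM or less in every library. Atf3 in fibroblast-like nuclei themselves was below its level in cardiomyocyte-like nuclei in every library. In WT-CD libraries, Atf3 was above the cardiomyocyte-like level in endocardial-like (16.8 and 11.8 CPM), lymphatic endothelial-like (15.6 and 13.3) and myeloid-like nuclei (23.7 and 22.0). In R403Q-CD libraries, endocardial-like (9.36 and 11.3) and lymphatic endothelial-like nuclei (7.73 and 5.46) were below it and myeloid-like nuclei (25.0 and 33.6) above it. The part of these lists in the levels of Atf3 was not tested.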

How the data were processed

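Single-nucleus libraries were made from 6 left ventricle samples, 2 per group. The authors aligned reads with Cell Ranger 8.0.1 to GRCm39, per the submitters' processing notes, and deposited UMI counts per barcode and gene. These counts are not normalised. Barcodes with at least 500 UMIs, 300 genes and at most 5% mitochondrial UMIs were kept, doublets called per library by scrublet in scanpy 1.11.5 were removed, and nuclei were clustered on 1990 variable genes without the listed genes. Clusters were named from marker lists with a scoring rule that was set after earlier results were seen, giving 26 clusters, 2 of them (56 nuclei) unnamed. Of 11 classes, 10 with at least 20 nuclei in every library were tested.

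Counts were summed per library and class and tested with edgeR 4.0.16 (quasi-likelihood F test, TMM, filterByExpr, all 6 libraries, 3 residual degrees of freedom, Benjamini-Hochberg adjustment over all genes tested, threshold 0.05). The difference between cardiomyocyte-like and other nuclei was an interaction term with the library as a block. The scripts were tested on simulated data. Replicate libraries differed by more than sampling noise (chi-square per degree of freedom 8.41 to 54.8). Replicate numbers follow the order of deposition and pair no samples. Every member is described. From each other list and comparison, the rule names the called genes (at most the 3 that rose most and the 3 that fell most) or, where none was called, the 2 with the smallest p, and beside Atf3 the 5 genes with the highest r. The members, lists and tests were chosen with earlier results of these data known. Alternatives were DESeq2, RLE size factors, no filter on low counts, no mitochondrial limit (with doublets and clusters called anew), at least 1000 UMIs, the 2 groups compared alone, each library left out, and, added after seeing the data, subsets of cardiomyocyte-like clusters. Wilson intervals (95%) cover counting error only.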

Additional observations from a re-analysis of the deposited data

Results flagged for a closer look

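Several fold changes differed between cell classes by a test of the difference itself. For Atf3 in R403Q-CD vs WT-CD, the log2 fold change in cardiomyocyte-like nuclei exceeded that in all other nuclei by 2.37 ± 0.25 (edgeR, adjusted p = 0.0164) and that in fibroblast-like nuclei by 2.91 ± 0.38 (adjusted p = 0.0169). In R403Q-EMPA vs R403Q-CD it was below that in fibroblast-like nuclei by 2.00, a difference of -2.00 ± 0.37 (adjusted p = 0.0419), and Nr4a3 gave -2.74 ± 0.43 (adjusted p = 0.0226). Both genes were lower there in cardiomyocyte-like nuclei (-1.03 and -1.74) and higher in fibroblast-like nuclei (0.96 and 0.89). None of these single fold changes passed. Jun differed from fibroblast-like nuclei by 1.00 ± 0.15 in R403Q-CD vs WT-CD (adjusted p = 0.0311) and by 0.79 ± 0.15 in R403Q-EMPA vs WT-CD (adjusted p = 0.0213).

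Against endothelial-like nuclei, Nr4a3 differed by 2.47 ± 0.44 in R403Q-CD vs WT-CD (adjusted p = 0.0397). In R403Q-EMPA vs WT-CD, Jun differed by 0.82 ± 0.20 (adjusted p = 0.0379) and Egr1 by 2.34 ± 0.52 (adjusted p = 0.0238), the Egr1 value resting on 2 to 33 cardiomyocyte UMIs per library. For Egr1 the fold change was 1.18 in cardiomyocyte-like and -0.98 in endothelial-like nuclei, and neither passed. All 9 calls of this kind were lost in the repeat without the mitochondrial limit (adjusted p from 0.0527 to 0.197), which also removed 0 doublets from R403Q-EMPA replicate 1, against 303, and redrew the classes. The Egr1 call was also lost without WT-CD replicate 2 (adjusted p = 0.166) and without R403Q-EMPA replicate 1 (0.230).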

How the results depend on the processing

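Leaving out each library in turn, the log2 fold change of Atf3 in cardiomyocyte-like nuclei stayed between 2.41 and 2.69 in R403Q-CD vs WT-CD, -1.32 and -0.81 in R403Q-EMPA vs R403Q-CD, and 1.25 and 1.74 in R403Q-EMPA vs WT-CD, and the middle one passed without WT-CD replicate 1 (adjusted p = 0.0492). The difference from other nuclei stayed between 2.28 and 2.46, -1.54 and -1.04, and 0.83 and 1.33. Of these, the second passed without WT-CD replicate 1 (0.0465), WT-CD replicate 2 (0.0449) or R403Q-EMPA replicate 2 (0.0410), and the third without R403Q-EMPA replicate 2 (0.0123). Each of these fits leaves 1 library in a group, so counts of members called in them are not given.

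In cardiomyocyte-like nuclei, members called in R403Q-CD vs WT-CD were 2 with DESeq2, without the mitochondrial limit and with the largest cluster alone, and 3 without the filter on low counts. With the 2 groups alone 2 were called, a count for which no share of all genes is given. The counts over all genes for the other settings stand at the end of this paragraph. In R403Q-EMPA vs R403Q-CD they were 3 with DESeq2, 3 without that filter and 1 with the largest cluster, and in R403Q-EMPA vs WT-CD 2 with DESeq2 and 4 without the filter. In fibroblast-like nuclei 1 was called without the filter in R403Q-EMPA vs R403Q-CD (996 of 24732 genes in all), and 1 with DESeq2 (406 of 13591) and 3 without the filter (1101 of 24732) in R403Q-EMPA vs WT-CD. In endothelial-like nuclei 1 was called with DESeq2 (123 of 13230), without the filter (502 of 23623) and with the 2 groups alone (153 of 13657) in R403Q-EMPA vs R403Q-CD, and 1 without the filter (771 of 23623) in R403Q-EMPA vs WT-CD. All genes called in cardiomyocyte-like nuclei in R403Q-CD vs WT-CD, 13 here, were 102 with DESeq2, 320 without the filter, 500 without the mitochondrial limit, 23 with the largest cluster and 0 to 29 with a library left out. For R403Q-EMPA vs R403Q-CD, 36 became 240, 692, 6, 30 and 0 to 197, and 170 with the 2 groups alone, and for R403Q-EMPA vs WT-CD, 576 became 728, 1437, 1002, 240 and 123 to 867, and 282 with the 2 groups alone.

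Atf3 in R403Q-EMPA vs R403Q-CD passed with DESeq2 (-1.04, adjusted p = 0.0131) and without the filter (-1.01), and in R403Q-EMPA vs WT-CD it did not pass in the largest cluster (0.62). Its difference from other nuclei was 2.09 without the mitochondrial limit in R403Q-CD vs WT-CD, -1.27 with RLE factors, -1.24 without the filter and -1.88 with the largest cluster in R403Q-EMPA vs R403Q-CD, and 1.08 with RLE factors and 1.14 without the filter in R403Q-EMPA vs WT-CD. The cause of these changes was not tested.

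Some members changed sign, Nr4a3 among them. In the largest cluster, Junb was -0.028 and Ier2 -0.22 in R403Q-CD vs WT-CD, Junb was 0.16 in R403Q-EMPA vs R403Q-CD, and Nr4a3 was -0.80 and Ier2 -0.12 in R403Q-EMPA vs WT-CD, with -1.26 for the Nr4a3 difference from other nuclei. In R403Q-EMPA vs R403Q-CD, Junb was 0.082 and Egr1 -0.57 without the mitochondrial limit, and Junb 0.17 without the shallow cluster. With a library left out, ranges in R403Q-CD vs WT-CD were -0.20 to 0.80 for Junb, -0.35 to 0.85 for Ier2 and -0.13 to 1.14 for Myc. In R403Q-EMPA vs R403Q-CD they were -0.066 to 0.022 for Junb, -1.13 to 0.93 for Fos, -0.61 to 0.60 for Egr1 and -0.13 to 0.77 for Ier2. In R403Q-EMPA vs WT-CD they were -0.22 to 0.77 for Junb, -0.31 to 1.86 for Fos, -0.022 to 1.25 for Ier2, -0.064 to 1.91 for Nr4a3, and -0.46 to 1.51 for the Nr4a3 difference.

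With 2 libraries per group, of unknown numbers of animals, and 2 to 75 UMIs of Fosb and Fos in cardiomyocyte-like nuclei, the absence of a call does not show that a member did not move. No paired analysis was possible because the replicate numbers were given in order of deposition and carry no pairing.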
